A study of Saccharomyces cerevisiae with 6 samples.

Results

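A set of 8 Saccharomyces cerevisiae genes was followed in cells that lack SNF2 and in wild-type cells: ISF1 and its paralog MBR1, RGI1 and its paralog RGI2, INA1 and its paralog FAT3, and the transcription factor genes HMS1 and RPI1, which are not paralogs of each other. The genes were taken from the 7127 features of the deposited count table by their identifiers. ISF1, RGI1, INA1, HMS1 and RPI1 were selected on their large falls in these same libraries, and MBR1, RGI2 and FAT3 as the paralogs of 3 of them, so the values of all 8 are a description, no p-value is given for them and nothing is read from their calls. Both genotypes were in HHY221, a haploid MATa W303 strain built for anchor-away experiments that carries the TOR1-1 allele, lacks FPR1 and has RPL13A fused to FKBP12, so the wild type is wild type for SNF2 only. The 3 snf2Δ samples and the 3 wild-type samples were taken in log phase from YPD, a rich medium with glucose, with no rapamycin added. The SNF2 product is the motor of Swi-Snf, a complex that slides and evicts nucleosomes, and the study asked how its loss changes transcription. The samples are numbered within a genotype, but the labels do not say that they were separate cultures, and a p-value here reflects only how much these particular samples varied. In bulk RNA, fewer cells expressing a gene and less RNA of that gene per cell cannot be told apart.

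The 3 paralog pairs are each annotated as products of the whole genome duplication, after which most duplicated genes of budding yeast were lost and the copies that remained could diverge in regulation. ISF1 and MBR1 encode serine-rich or hydrophilic proteins whose overproduction suppresses the growth defects of hap2, hap3 and hap4 mutants. The Hap2/3/4/5 complex is the activator of genes for respiration, and respiratory genes are held low while glucose is plentiful. RGI1 and RGI2 encode related proteins with a part in energy metabolism under respiratory conditions, and RGI2 is annotated as repressed at high glucose. FAT3 is required for fatty acid uptake, and INA1 encodes a protein of unknown function. HMS1 encodes a basic helix-loop-helix (bHLH) protein that gives hyperfilamentous growth when overproduced. RPI1 encodes a transcription factor whose overproduction suppresses the heat shock sensitivity of cells with too much RAS2.

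The sequence upstream of the start codon is shown for ISF1 and its paralog MBR1, for RGI1, and for INA1 and its paralog FAT3, so that a gene that fell can be read beside a paralog that did not pass the test. Each window of 250 bases runs from 350 to 101 bases before the start codon, 5′ to 3′ on the strand of the gene, in the RefSeq R64 (sacCer3) reference, which is the S288C strain and not W303. Capitals mark matches to TATAAA (the TATA box), to CCAAT (the core bound by the Hap complex), AGGGG (the core bound by the stress activators Msn2 and Msn4) or to CACGTG (the E-box of many bHLH proteins), on either strand.
ISF1, chrXIII:431196-431445, minus strand: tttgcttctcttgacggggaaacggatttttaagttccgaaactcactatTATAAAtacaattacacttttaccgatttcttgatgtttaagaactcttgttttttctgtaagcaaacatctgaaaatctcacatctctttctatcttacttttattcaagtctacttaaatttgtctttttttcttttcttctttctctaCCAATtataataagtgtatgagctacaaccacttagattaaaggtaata
MBR1, chrXI:264439-264688, plus strand: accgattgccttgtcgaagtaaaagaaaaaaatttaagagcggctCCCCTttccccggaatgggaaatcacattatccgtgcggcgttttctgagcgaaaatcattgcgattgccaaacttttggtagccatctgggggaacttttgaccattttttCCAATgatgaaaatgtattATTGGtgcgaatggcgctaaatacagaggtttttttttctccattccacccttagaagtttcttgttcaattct
RGI1, chrV:291716-291965, plus strand: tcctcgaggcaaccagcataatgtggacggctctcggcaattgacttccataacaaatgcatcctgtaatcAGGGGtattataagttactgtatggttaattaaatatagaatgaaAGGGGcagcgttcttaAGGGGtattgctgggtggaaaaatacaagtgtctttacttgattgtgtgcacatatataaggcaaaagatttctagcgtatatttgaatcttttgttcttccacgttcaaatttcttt
INA1, chrXII:950806-951055, plus strand: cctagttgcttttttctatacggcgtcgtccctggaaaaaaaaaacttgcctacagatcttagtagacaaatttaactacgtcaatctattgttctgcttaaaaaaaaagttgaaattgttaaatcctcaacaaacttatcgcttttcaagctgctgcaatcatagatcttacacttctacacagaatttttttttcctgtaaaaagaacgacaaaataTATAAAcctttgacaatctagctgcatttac
FAT3, chrXI:91637-91886, minus strand: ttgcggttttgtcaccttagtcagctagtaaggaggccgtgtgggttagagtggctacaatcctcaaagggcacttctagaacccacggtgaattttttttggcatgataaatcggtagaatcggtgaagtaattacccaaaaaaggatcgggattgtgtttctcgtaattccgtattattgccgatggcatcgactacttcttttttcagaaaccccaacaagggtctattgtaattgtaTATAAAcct
Of the windows of 6001 genes, 39.6% held TATAAA, 37.7% held CCAAT, 20.1% held AGGGG and 3.78% held CACGTG. In the ISF1 window TATAAA began 300 and CCAAT 149 bases before the start codon, whereas the MBR1 window held no TATAAA but had CCAAT in both orientations at 193 and 174 bases, and AGGGG on the opposite strand at 305 bases. The RGI1 window held AGGGG 3 times, at 279, 234 and 218 bases. TATAAA was the only motif found in the windows of INA1, at 131 bases, and FAT3, at 109 bases. Of the transcription factor genes, HMS1 held TATAAA on the opposite strand at 249 bases, and RPI1 held TATAAA at 299 bases, TATAAA on the opposite strand at 241 bases and CCAAT on the opposite strand at 328 bases. None of these 7 windows held CACGTG. These matches are a description of the letters in these windows and not of binding.

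The libraries held 4134546 to 6708036 counts. The detection floor, set at 3 counts in a library and covering counting error only, was 0.481 to 0.745 CPM, where CPM is the count scaled to a common library size with TMM factors. SNF2 itself had 6, 9 and 7 counts in the snf2Δ libraries, against 363, 298 and 365 in wild type. The first principal component (76.5% of the variance) parted the genotypes, and the second (9.98%) set wild-type replicate 3, which had the most counts, apart from replicates 1 and 2. Without that library 1184 of all genes rose and 1311 fell, against 939 and 1003 with it, and single values without it are given where it changed a call or a member's fold change. The mating type of the strain was checked with its markers: 5 a-cell genes summed to 1454 to 1651 CPM in snf2Δ and 1420 to 2346 CPM in wild type, whereas 3 alpha-cell genes summed to 3.06 to 3.45 CPM in snf2Δ and 1.02 to 3.30 CPM in wild type.

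ISF1, RGI1, INA1, HMS1 and RPI1 were at 2.06% to 6.10% of their wild-type level in snf2Δ cells, and their paralogs MBR1 and FAT3 were at 102% and 107%. RGI2, the remaining paralog, was close to the detection floor in both genotypes. By the call rule applied to all genes (edgeR quasi-likelihood test, adjusted p under 0.05), 5 of the 8 counted as fallen, 2 did not pass and RGI2 did not enter the fit, beside 17.8% of all 5641 genes tested (SNF2 left out) that fell. The selection of the 5 fixed this count. A log2 fold change under -4 was seen in 13 genes of all those tested (0.23%), and counted from the lowest HMS1 was number 2, ISF1 number 9, RGI1 number 10, RPI1 number 11 and INA1 number 13. When a log2 size above 2 was required as well, the 5 still counted as fallen, as did 1.76% of all genes tested, and 1.06% of them rose. In each of the 5 every snf2Δ library was below every wild-type library, which held for 24.1% of all genes tested. These positions follow from how the genes were chosen.

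**Figure D1:**
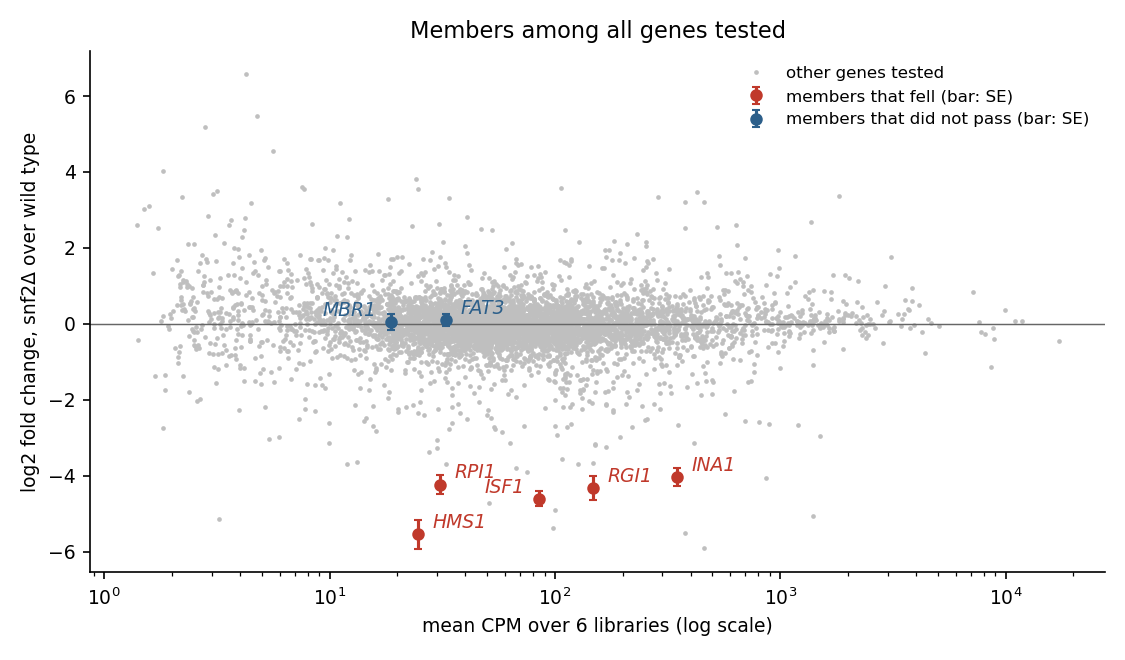
Log2 fold change of snf2Δ over wild type (vertical axis) against the mean level over the 6 libraries in CPM (horizontal axis, log scale) for all genes tested. Red points are the 5 genes that fell and blue points MBR1 and FAT3, with the standard error as bars. The 5 lie between -5.55 and -4.04 and the other 2 at 0.04 and 0.10.

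ISF1 (YMR081C) lies on chromosome XIII of sacCer3, 430079 to 431095 on the minus strand, and its paralog MBR1 (YKL093W) on chromosome XI, 264789 to 265808 on the plus strand. ISF1 had 24, 42 and 20 counts in snf2Δ, against 821, 787 and 991 in wild type. Its level was 5.52, 9.19 and 4.97 CPM in snf2Δ and 169.5, 160.5 and 158.8 CPM in wild type. The lowest wild-type library was 17.3 times the highest snf2Δ library. ISF1 averaged 6.56 ± 2.29 CPM in snf2Δ and 163 ± 5.74 CPM in wild type (SD, n = 3 each), a log2 fold change of -4.61 ± 0.20 (SE), or 24.5-fold lower. The snf2Δ libraries of ISF1 spread 1.85-fold, with replicate 2 the highest, and its wild-type libraries 1.07-fold, the smallest wild-type spread of the 5 genes that fell.

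MBR1, which encodes a protein linked to mitochondrial function and the stress response, had no such difference. Its level was 17.3, 24.5 and 14.9 CPM in snf2Δ and 18.4, 17.95 and 19.1 CPM in wild type. The snf2Δ libraries lay on both sides of the wild-type range, and replicate 2 was again the highest. MBR1 averaged 18.9 ± 5.002 CPM in snf2Δ and 18.5 ± 0.566 CPM in wild type, with a log2 fold change of 0.04 ± 0.21.

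The ratio of ISF1 to MBR1 was inverted between the genotypes. Counts per kb of coding length, compared within a library so that scaling cancels, put ISF1 at 0.321, 0.376 and 0.334 times MBR1 in the 3 snf2Δ libraries and at 9.25, 8.97 and 8.35 times MBR1 in the 3 wild-type libraries. The difference of the mean log2 ratios, snf2Δ minus wild type, was -4.66 ± 0.08 (SE from the pooled SD), the tightest of the 4 pairs. Per kb, MBR1 made up 72.7% to 75.7% of the pair in the snf2Δ libraries and 9.75% to 10.7% in the wild-type libraries. The summed level of the pair was 25.5 ± 7.29 CPM in snf2Δ and 181 ± 5.61 CPM in wild type. The encoded proteins of 338 and 339 residues were identical at 100 of 241 aligned residues (41.5%), and their coding sequences shared no exact stretch longer than 12 bases.

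RGI1 (YER067W) lies on chromosome V, 292066 to 292551 on the plus strand, and RGI2 (YIL057C) on chromosome IX, 247902 to 248396 on the minus strand. RGI1 had 44, 112 and 27 counts in snf2Δ, against 1281, 1781 and 1340 in wild type. Its level was 10.1, 24.5 and 6.71 CPM in snf2Δ and 264, 363 and 215 CPM in wild type. The groups were 8.76-fold apart at their nearest libraries. Replicate 2 was the highest in snf2Δ, 3.65 times the lowest, and also the highest in wild type. RGI1 averaged 13.8 ± 9.44 CPM in snf2Δ and 281 ± 75.6 CPM in wild type, a log2 fold change of -4.32 ± 0.31, or 19.98-fold lower, and -5.05 without snf2Δ replicate 2.

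RGI2, the paralog that is induced when carbon is limiting, was barely detected. It had 6, 2 and 4 counts in snf2Δ and 3, 2 and 6 counts in wild type, which is 1.38, 0.438 and 0.994 CPM in snf2Δ and 0.619, 0.408 and 0.962 CPM in wild type. Several of these values are at or under the floor of 3 counts, and RGI2 did not pass the filter on low counts, so it was not tested and no fold change is given. Pooled over libraries, its level was 0.927 CPM in snf2Δ (exact 95% Poisson interval 0.479 to 1.62, covering counting error only) and 0.688 CPM in wild type (0.344 to 1.23). A difference between the genotypes was not detectable at this depth.

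Per kb of coding length RGI1 was 7.47, 57.0 and 6.88 times RGI2 in the snf2Δ libraries and 435, 907 and 227 times RGI2 in the wild-type libraries. The difference of the mean log2 ratios was -4.93 ± 1.07, the least certain of the 4, since the ratios rest on 2 to 6 counts of RGI2 in a library. RGI1 was the higher of the pair in every library, with RGI2 at 1.72% to 12.7% of the pair per kb in snf2Δ and 0.110% to 0.438% in wild type. The sum was 14.7 ± 9.06 CPM in snf2Δ and 282 ± 75.3 CPM in wild type. The proteins of 161 and 164 residues were identical at 107 of 161 aligned residues (66.5%), the closest of the pairs, and the coding sequences shared no exact stretch longer than 11 bases.

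INA1 (YLR413W) lies on chromosome XII, 951156 to 953183 on the plus strand, and FAT3 (YKL187C) on chromosome XI, 89284 to 91536 on the minus strand. INA1 had 240, 130 and 147 counts in snf2Δ, against 3154, 2377 and 5212 in wild type. Its level was 55.2, 28.4 and 36.5 CPM in snf2Δ and 651, 485 and 835 CPM in wild type. The nearest libraries of the genotypes were 8.78-fold apart. INA1 was highest in wild-type replicate 3, the library in which ISF1, RGI1, HMS1 and RPI1 were each at their lowest wild-type level. It averaged 40.1 ± 13.7 CPM in snf2Δ and 657 ± 175 CPM in wild type, a log2 fold change of -4.04 ± 0.24, or 16.4-fold lower, and -3.83 without wild-type replicate 3.

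FAT3 had 27.4, 36.8 and 38.0 CPM in snf2Δ and 31.8, 32.03 and 31.4 CPM in wild type. The 3 wild-type values lay inside the snf2Δ range. FAT3 averaged 34.1 ± 5.81 CPM in snf2Δ and 31.7 ± 0.310 CPM in wild type, with a log2 fold change of 0.10 ± 0.17. Per kb, INA1 was 2.24, 0.860 and 1.07 times FAT3 in the snf2Δ libraries and 22.8, 16.8 and 29.5 times FAT3 in the wild-type libraries. The paralogs were thus near an equal level per kb in snf2Δ replicates 2 and 3, whereas INA1 was the higher in replicate 1. The difference of the mean log2 ratios was -4.14 ± 0.48. FAT3 made up 30.9% to 53.8% of the pair per kb in snf2Δ and 3.27% to 5.61% in wild type. The summed level of the pair was 74.1 ± 8.71 CPM in snf2Δ and 689 ± 175 CPM in wild type. The proteins of 675 and 750 residues were identical at 326 of 663 aligned residues (49.2%), and no exact stretch of the coding sequences was longer than 13 bases.

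HMS1 (YOR032C), on chromosome XV, 389771 to 391075 on the minus strand, fell furthest of the 8 genes. It had 8, 3 and 2 counts in snf2Δ, against 242, 300 and 213 in wild type. Its level was 1.84, 0.656 and 0.497 CPM in snf2Δ and 49.97, 61.2 and 34.1 CPM in wild type. The snf2Δ level was at the floor in replicate 2 and under it in replicate 3. HMS1 averaged 0.998 ± 0.734 CPM in snf2Δ and 48.4 ± 13.6 CPM in wild type, a log2 fold change of -5.55 ± 0.38, or 46.7-fold lower, and -6.30 without snf2Δ replicate 1. Because the fold rests on 13 counts in snf2Δ (755 in wild type), the pooled share is the more direct value: the snf2Δ level was 2.13% of wild type (exact 95% interval 1.13% to 3.66%, covering counting error only).

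RPI1 (YIL119C), on chromosome IX, 136654 to 137877 on the minus strand, had 17, 16 and 7 counts in snf2Δ, against 272, 318 and 345 in wild type. Its level was 3.91, 3.501 and 1.74 CPM in snf2Δ and 56.2, 64.9 and 55.3 CPM in wild type, with the nearest libraries 14.1-fold apart. RPI1 averaged 3.05 ± 1.15 CPM in snf2Δ and 58.8 ± 5.30 CPM in wild type, a log2 fold change of -4.24 ± 0.24, or 18.9-fold lower. Both genes of this pair fell, as their selection fixed. Of the genes that entered only as paralogs, MBR1 and FAT3 did not pass and RGI2 was not tested. Per kb HMS1 was 0.441, 0.176 and 0.268 times RPI1 in snf2Δ and 0.834, 0.885 and 0.579 times RPI1 in wild type. The difference of the mean log2 ratios was -1.31 ± 0.39. Its snf2Δ side rests on few counts, 8, 3 and 2 of HMS1 against 17, 16 and 7 of RPI1. RPI1 was the higher of the pair in every library, at 69.4% to 85.04% of the pair per kb in snf2Δ and 53.1% to 63.3% in wild type. The coding region of RPI1 is annotated as differing in the number of tandem repeats between strains. How that bears on its counts in this W303 strain was not tested.

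**Figure D2:**
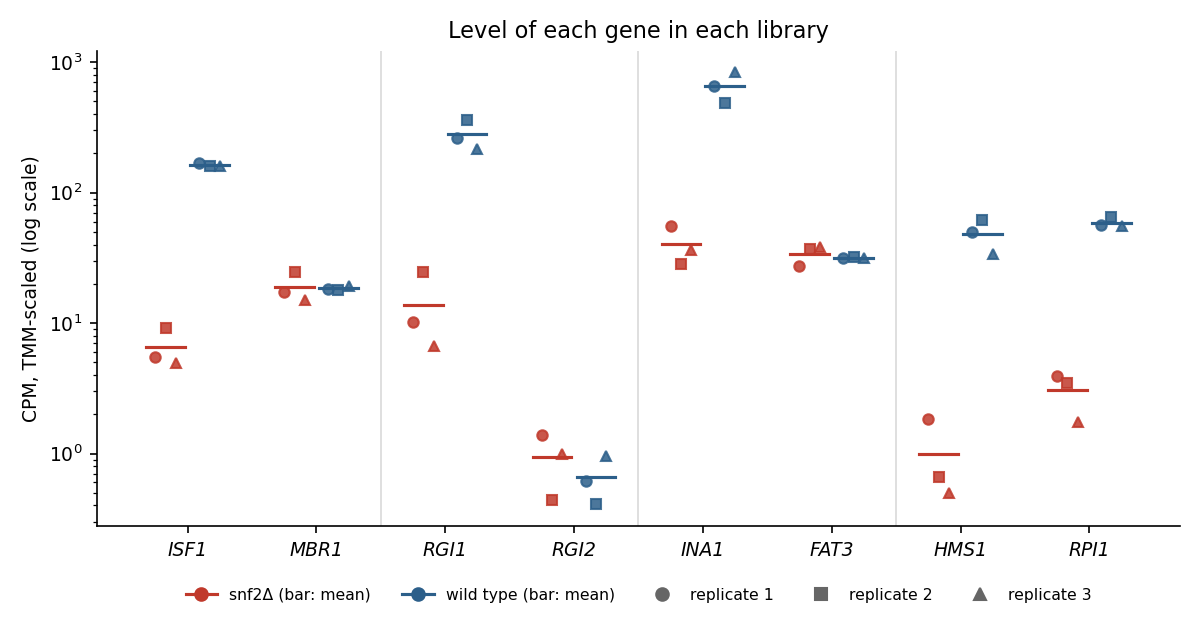
Level of each of the 8 genes in each library in CPM (log scale), snf2Δ in red at the left of each gene and wild type in blue at the right, with bars at the means and symbols for the replicates. ISF1, RGI1, INA1, HMS1 and RPI1 separate by at least 8.76-fold between the nearest libraries, and MBR1, RGI2 and FAT3 overlap.

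**Figure D3:**
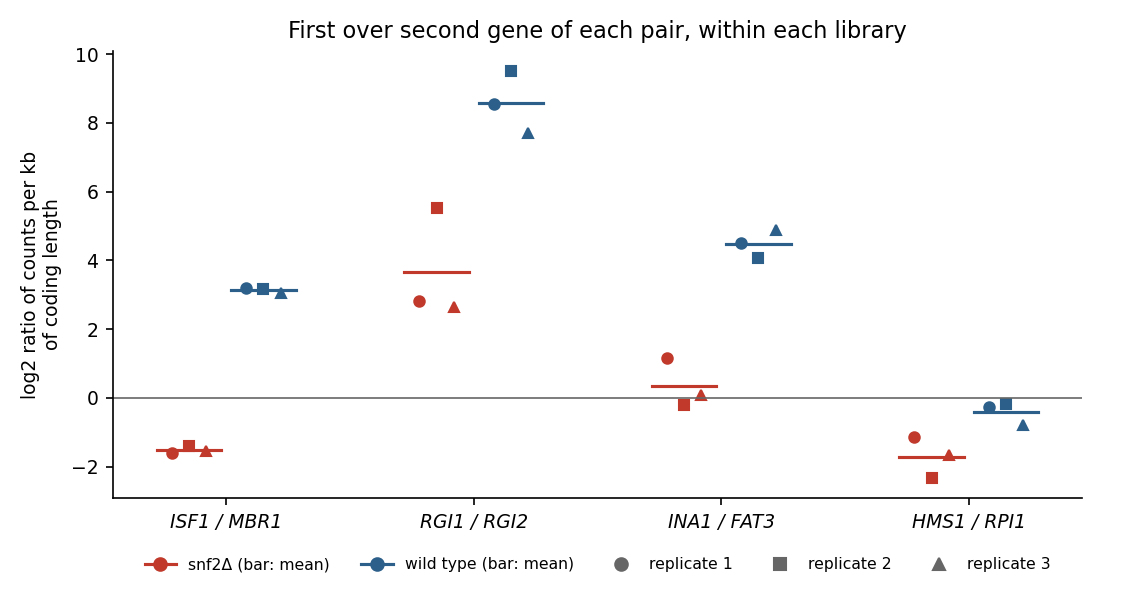
Log2 ratio of the first to the second gene of each pair in counts per kb of coding length, by library, with bars at the means (snf2Δ red and left, wild type blue and right). The line at 0 marks equal levels per kb. The mean of ISF1 over MBR1 is -1.53 in snf2Δ and 3.14 in wild type, and that of INA1 over FAT3 is 0.35 in snf2Δ and 4.48 in wild type.

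The order of the genes by level per kb of coding length differed between the genotypes as a consequence. In snf2Δ, RGI1 (28.4 CPM per kb), INA1 (19.8), MBR1 (18.5) and FAT3 (15.1) followed each other with overlapping libraries, ISF1 was separate below them (6.45), and RPI1 (2.49), RGI2 (1.89) and HMS1 (0.765) again overlapped as neighbours. In wild type the order was RGI1 (578 CPM per kb), INA1 (324), ISF1 (160.2), RPI1 (48.0), HMS1 (37.1), MBR1 (18.1), FAT3 (14.1) and RGI2 (1.34), in which only RPI1 and HMS1 overlapped as neighbours. Among the 5499 genes tested that have a coding length, wild-type RGI1 was at percentile 94.1 of levels per kb, INA1 at 89.9 and ISF1 at 80.7. RPI1 (49.0) and HMS1 (40.8) were near the middle. The 3 paralogs were low in wild type, with MBR1 at percentile 19.1, FAT3 at 14.0 and RGI2 at 0.746. RGI2 was not tested, so it is placed against these genes without being one of them.

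The 5 genes that fell did not vary together across replicates in a single way. In snf2Δ, replicate 2 was the highest library for ISF1 and RGI1 and replicate 1 for INA1, HMS1 and RPI1. Replicate 3 was the lowest for ISF1, RGI1, HMS1 and RPI1, and replicate 2 for INA1. The spread of the snf2Δ libraries ran from 1.85-fold for ISF1 to 3.70-fold for HMS1, with 1.94-fold for INA1, 2.25-fold for RPI1 and 3.65-fold for RGI1. Without wild-type replicate 3 the log2 fold changes were -4.63 for ISF1, -4.48 for RGI1, -5.75 for HMS1, -4.28 for RPI1, 0.06 for MBR1 and 0.09 for FAT3.

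As for features that the choice did not use, the 8 genes are single-exon genes on 6 chromosomes, none overlaps another RefSeq gene, and each lies at least 89.3 kb from a chromosome end. Features of the table that have no RefSeq entry were not placed, so overlap with them was not examined. The gap to the next gene upstream was 673 bases for ISF1, 1266 for RGI1, 682 for INA1, 1100 for HMS1 and 1874 for RPI1, against a median of 414 over 6002 protein-coding genes. MBR1, at 498 bases, and RGI2, at 453, were closer to that median, but FAT3, at 1207 bases, was not. The GC content of the coding sequence ranged from 32.7% for RPI1, which is at percentile 0.7498 of these genes, to 43.4% for FAT3, and the median of these genes was 39.8%. None of the 8 matched another gene of the annotation at 95% identity or more. A search of the proteins outside the pairs found PUN1, a plasma membrane protein, for INA1 (24.6% identity over 207 residues) and for FAT3 (23.5% over 196), and the bHLH activator TYE7 for HMS1 (31.8% over 132).

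The nearest annotated genes on each side were compared next, since they share the region but were not used to choose the members. Of 16 neighbours 14 were in the table and 11 were tested, of which 2 rose, 3 fell and 6 did not pass, beside 16.6% of all genes tested that rose and 17.8% that fell, with log2 fold changes of -0.82 to 0.89. PUN1, which lies 169 bases beyond the end of INA1 on the opposite strand, rose while INA1 fell. It had 426, 592 and 526 CPM in snf2Δ and 259, 265 and 308 CPM in wild type, with no overlap, a log2 fold change of 0.89 ± 0.15 and an adjusted p of 0.000279. No source used here says whether the counting took account of strand, although the genes do not overlap. NAM7, the RNA helicase of nonsense-mediated decay, lies 451 bases beyond the end of ISF1 on the same strand, and averaged 165 ± 25.1 CPM in snf2Δ and 187 ± 2.26 CPM in wild type (log2 fold change -0.18 ± 0.14, adjusted p = 0.339).

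Next to RGI1, the upstream gene RRT13 averaged 12.99 ± 3.67 CPM in snf2Δ and 20.5 ± 5.18 CPM in wild type (log2 fold change -0.66 ± 0.24, adjusted p = 0.0459). This call was lost in 9 of the 14 alternatives, among them without wild-type replicate 2 (adjusted p = 0.0661) or 3 (0.140) and without snf2Δ replicate 1 (0.149) or 3 (0.184). The downstream gene MOT2, a subunit of Ccr4-Not, had a log2 fold change of -0.39 ± 0.14 (adjusted p = 0.0377). Next to MBR1, BUD2, a regulator of bud site selection, fell to 26.0 ± 3.84 CPM in snf2Δ, against 46.1 ± 7.23 CPM in wild type (log2 fold change -0.82 ± 0.18, adjusted p = 0.00217), and the monoglyceride lipase gene YJU3 rose by 0.40 ± 0.14 (adjusted p = 0.0348). The MOT2 call was lost in 6 alternatives and the YJU3 call in 5. Both were lost when replicate 1 or 2 of either genotype was left out (adjusted p = 0.0786 to 0.129 for MOT2 and 0.0706 to 0.148 for YJU3). The MOT2 call was also lost with upper quartile scaling (adjusted p = 0.0923) and the DESeq2 test (0.0640), and the YJU3 call with total counts (0.0578). The genes beside RPI1, the multidrug transporter gene QDR1 (-0.17 ± 0.21, adjusted p = 0.567) and the GTPase gene RHO3 (0.10 ± 0.14, adjusted p = 0.641), did not pass. Beside FAT3, the peroxisomal fatty acid transporter gene PXA2 (-0.39 ± 0.20, adjusted p = 0.139) and the mRNA export gene MTR2 (-0.30 ± 0.14, adjusted p = 0.102) did not pass, and passed without wild-type replicate 3 (-0.56 and -0.35). Beside RGI2, YIL059C did not pass (0.41 ± 0.19, adjusted p = 0.103). YMR082C, YLR412C-A and YOR032W-A, next to ISF1, INA1 and HMS1, were too low to be tested, and SUP17 and CRS5, next to RGI2 and HMS1, were not analysed here.

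**Figure D4:**
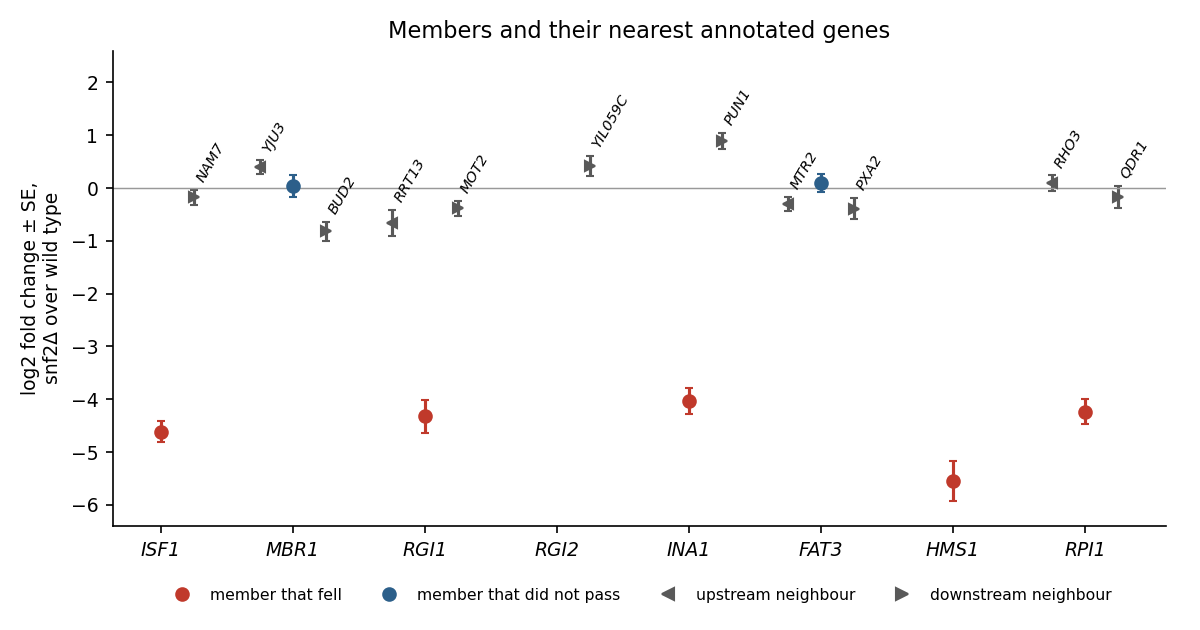
Log2 fold change of snf2Δ over wild type with its standard error for each of the 8 genes (red, fell; blue, did not pass) and, in grey, for the neighbours that were tested, with the pointer direction giving the side relative to the direction of the gene. The neighbours lie between -0.82 and 0.89 and the genes that fell at or below -4.04. RGI2 was not tested and has no point of its own.

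Gene lists from the pathways to which the members belong were counted with the same test, read beside the 17.8% of all genes that fell and the 16.6% that rose. The lists were written with earlier results of these data known, so their counts are a description and not an independent comparison. Of the 5 Hap activators, 2 fell. HAP4, the regulated activation subunit of the complex that ISF1 and MBR1 were linked to by suppression, fell to 65.8, 104.6 and 58.1 CPM in snf2Δ, against 441, 453 and 413 CPM in wild type (log2 fold change -2.51 ± 0.19, adjusted p = 6.25e-08). HAP2, a DNA-binding subunit, fell to 24.3 ± 0.561 CPM in snf2Δ, against 37.7 ± 3.56 CPM in wild type (-0.63 ± 0.16, adjusted p = 0.00655). HAP1 (-0.20), HAP3 (0.11) and HAP5 (-0.52) did not pass, and the list median was -0.52, beside -0.02 for all genes tested. Without wild-type replicate 3 HAP5 passed as well (-0.70, adjusted p = 0.0040).

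Of 14 genes of filamentous growth, the process that HMS1 promotes when overproduced, 10 fell and 4 did not pass, with a median log2 fold change of -1.18. MGA1, which like HMS1 is a gene whose extra copies restore filamentous growth to ammonium permease mutants, fell to 8.05, 11.2 and 7.70 CPM in snf2Δ, against 121, 115 and 139 CPM in wild type (-3.79 ± 0.19, adjusted p = 6.96e-10). The activator gene PHD1 fell to 22.1 ± 3.91 CPM in snf2Δ, against 70.1 ± 2.57 CPM in wild type (-1.66 ± 0.16, adjusted p = 1.4e-06). ASH1 (-1.53 ± 0.13, adjusted p = 2.2e-07) and MIT1 (-1.23 ± 0.14, adjusted p = 4.7e-06) also fell. The list holds repressors as well as activators of filamentous growth: NRG1 and NRG2, which fell, repress FLO11, the flocculin of filaments, and FLO11 itself did not pass, at 15.4 ± 1.99 CPM in snf2Δ and 12.9 ± 3.22 CPM in wild type (log2 fold change 0.23).

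Of 13 genes of the RAS and protein kinase A pathway, in which RPI1 was found by suppression, 5 fell and 2 rose, with a median log2 fold change of -0.23. RAS2 (-1.29 ± 0.19, adjusted p = 9.45e-05) and RAS1 (-1.07 ± 0.16, adjusted p = 0.000109) fell, as did TPK2, for a catalytic subunit of the kinase (-0.96 ± 0.16, adjusted p = 0.000207), and GPA2, for a G protein subunit (-0.85). PDE1, for a phosphodiesterase that breaks down cyclic AMP and so opposes the kinase, fell as well (-0.67), while IRA1 (0.81 ± 0.14, adjusted p = 0.000377) and IRA2, which encode the GTPase activators that switch RAS off, rose. Without wild-type replicate 3, 6 of the 13 fell. The IRA2 call was lost without wild-type replicate 2 (adjusted p = 0.0623). Among 7 bHLH genes, the family of HMS1, INO2 rose (0.62 ± 0.22, adjusted p = 0.0427), RTG1 fell (-0.58 ± 0.22, adjusted p = 0.0495) and the other 5 did not pass, including TYE7, the gene most like HMS1 in protein sequence, at 164 ± 14.9 CPM in snf2Δ and 147 ± 11.6 CPM in wild type. The RTG1 call was lost in 12 of 14 alternatives (adjusted p up to 0.232, without wild-type replicate 2; also without wild-type replicate 1 or any 1 snf2Δ library), and the INO2 call was lost with total counts and without wild-type replicate 1 or snf2Δ replicate 1 or 2 (adjusted p up to 0.199).

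Of 5 genes of fatty acid uptake and activation, the process of FAT3, the acyl-CoA synthetase genes FAA3 and FAA4 fell. FAA3 was at 25.9 ± 3.72 CPM in snf2Δ and 69.7 ± 9.40 CPM in wild type (-1.43 ± 0.17, adjusted p = 8.98e-06), and FAA4 at 287 ± 25.04 CPM in snf2Δ and 624 ± 124 CPM in wild type (-1.12 ± 0.16, adjusted p = 5.36e-05). FAA1 (0.01), FAA2 (-0.002) and FAT1 (-0.05) did not pass. Of 10 stress and stationary phase markers, 8 were tested and 4 fell: GAD1, for glutamate decarboxylase (-2.63 ± 0.17, adjusted p = 9.61e-09), CTT1, for the cytosolic catalase (-2.49 ± 0.17, adjusted p = 1.76e-08), DDR2 (-2.40 ± 0.23, adjusted p = 1.05e-06) and HSP12 (-1.20 ± 0.29, adjusted p = 0.00506). HSP26, SSA3, GRE1 and SPG4 did not pass, SIP18 and SPG1 were too low to be tested, and the list summed to 120.0 to 159 CPM in snf2Δ and 377 to 499 CPM in wild type. The part of growth state in the values of the 8 genes was not tested.

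**Figure D5:**
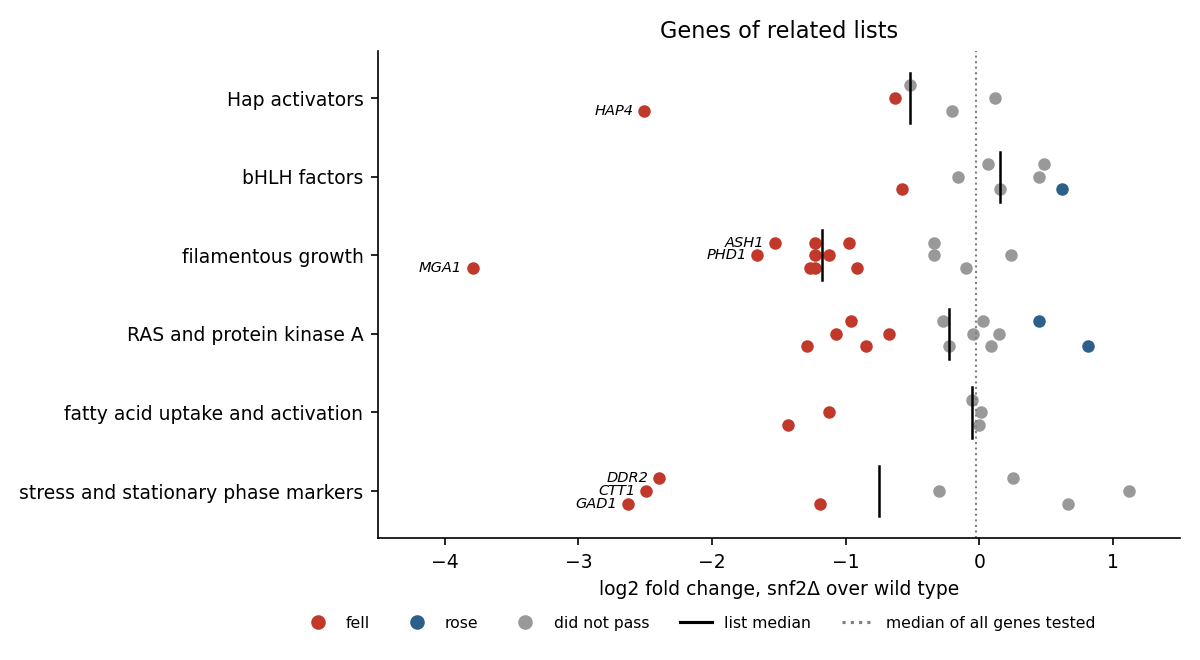
Log2 fold change of snf2Δ over wild type (horizontal axis) for the tested genes of 6 lists (rows), with genes that fell in red, that rose in blue and that did not pass in grey. The black bar is the median of a list and the dotted line the median of all genes tested (-0.02). HAP4 at -2.51, MGA1 at -3.79 and GAD1 at -2.63 are the lowest of their lists.

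For each of the 8 genes the gene with the most similar pattern over the 6 libraries was sought among 5199 genes that averaged at least 10 CPM, as the distance between log2 levels centred on the mean of each gene. HXT4, a glucose transporter gene, was nearest to ISF1 (distance 0.67) and to RPI1 (0.77), ISF1 was nearest to RGI1 (0.89), the peptide transporter gene PTR2 to INA1 (0.74) and the stress gene HSP30 to HMS1 (0.88). MIC27, for a protein of the mitochondrial inner membrane, was nearest to MBR1 (0.21) and HER1 to FAT3 (0.12). The next genes in order were almost as near to MBR1 (0.22 and 0.23) and to FAT3 (0.13 and 0.14), so neither match stands out. NEJ1 was nearest to RGI2 (0.33), whose few counts make this match uninformative. These are descriptions over 6 libraries that share the genotype split.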

How the data were processed

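RNA sequencing libraries from 3 snf2Δ and 3 wild-type samples of HHY221 were compared, grouped by GEO's labels. The deposited values are raw read counts that the authors made per feature, neither normalized nor pooled, in 1 column per library. Per the submitters' processing notes, bcl2fastq 2.18, STAR 2.7.3a and RSEM 1.3.0 were used with sacCer3; the study's methods name STAR for alignment and RSEM for TPM, and the deposited table's name points to STAR counts, but the strand setting is not stated in the sources used. The labels name hot phenol extraction and the study's methods a column kit, which is not settled. Of 7127 features 6047 matched RefSeq R64, which gave names, positions and sequences.

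Counts were tested in R 4.3.3 with edgeR 4.0.16 (filterByExpr, TMM, quasi-likelihood F test, genotype as the only term), with Benjamini-Hochberg adjustment over all genes and a threshold of 0.05. SE was the size of the log2 fold change divided by the square root of F. Levels are CPM scaled by TMM, at 4134546 to 6708036 counts per library. Members and lists were chosen with earlier results of these data known. Named genes were the members, their nearest neighbours, SNF2, up to 4 genes of each list by adjusted p, genes of lists of 8 or fewer, and the most similar gene (0.5 CPM added before logs). HSP26, SSA3, GRE1, SPG4, SIP18, SPG1, NRG1, NRG2, FLO11, GPA2, PDE1 and IRA2 lie outside this rule and were named after their values were seen. A gene of the RAS and protein kinase A list and an upstream window are not reported here. The log2 pair ratios had 0.5 counts added, and the plain ratios and shares had none. Proteins were aligned with Biopython 1.88 and searched with BLAST 2.17.0 (expect limit 1e-05). The procedure was tested on simulated data. The alternatives were other scalings and filters, DESeq2 1.42.0, voom of limma 3.58.1, a replicate block, each library left out, and a call rule that added a log2 fold change above 2 in size.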

Additional observations from a re-analysis of the deposited data

How the results depend on the processing

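The 7 members tested kept their direction or their side of the threshold in all 14 alternatives, and 5 fell in each, as their selection fixed. The log2 fold changes ranged from -4.95 to -4.46 for ISF1, -5.05 (without snf2Δ replicate 2) to -4.01 for RGI1, -4.33 to -3.83 for INA1, -6.30 (without snf2Δ replicate 1) to -5.26 for HMS1, -4.44 to -3.98 for RPI1, -0.20 to 0.18 for MBR1 and 0.02 to 0.25 for FAT3. The differences of the pair ratios between the genotypes also kept their direction. In snf2Δ replicates 1, 2 and 3 the log2 ratio of INA1 to FAT3 was 1.16, -0.217 and 0.0943. The direction of its snf2Δ mean therefore rests on replicate 1. The RGI1 and RGI2 ratio was not run from fitted coefficients, since RGI2 was filtered out. Over all genes 939 rose and 1003 fell (48.4% of calls rose), and with upper quartile scaling 1204 rose and 808 fell (59.8%). When a log2 size above 2 was also required, 60 genes rose and 99 fell, and the falls in the lists became 1 for Hap activators, 1 for filamentous growth, 0 for RAS and protein kinase A, 0 for fatty acid genes and 0 for bHLH factors, and the rises 0 for RAS and protein kinase A and 0 for bHLH factors. The bHLH counts were the least stable: 0 rose with total counts and 0 to 2 with a library left out, and 0 fell with any other scaling or filter, the DESeq2 test or voom, and 0 to 1 with a library left out. RAS and protein kinase A rises were 1 to 2 with a library left out, 1 without wild-type replicate 2. The causes were not tested. Depth limits RGI2 and the snf2Δ level of HMS1.

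The deviations of same-numbered samples were weakly correlated (r = 0.155, -0.0403 and 0.126), beside -0.198 to 0.132 for samples with different numbers. With 3 samples in each genotype these values cannot decide whether the numbers pair the samples. With the replicate block 986 genes rose and 1072 fell, 5 members fell, and HAP5 passed (adjusted p = 0.0477).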
